A study of Mus musculus with 2 samples.

Results

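The glycosyltransferases described here are the enzymes that branch, extend and cap cell-surface glycans. They were taken as every non-control row of both scanner files whose gene name began with Mgat, Fut, St3gal, St6gal, St8sia, B4galt, B3galt, B3gnt or Gcnt followed by a number. The rule found 96 probes, each printed once, of the 41174 different probes on the array, and these carried 53 of its 27962 gene names. Transcript levels were measured in M/E cells, a line made from mouse bone marrow by immortalisation with MLL/ENL. Both cultures carried the genotype Mef2c del/-, which per the labels leaves no functional Mef2c. One was infected with the empty vector MYs-iPAC and served as control. The other was infected with MYs-pMef2cASR, which encodes MEF2C-ASR, an always-active Mef2c mutated in histone deacetylase binding. Both were under puromycin selection before use. The medium of both held IL3, GM-CSF and IL6 at 10 ng/ml and SCF at 100 ng/ml, and cells were harvested 6, 24 and 48 h after seeding in fresh medium. RNA from the 3 time points of a culture was combined and hybridised to 1 Agilent array, so each group is 1 array, no difference has a replicate check, and no test was run.

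N-glycans are built on asparagine side chains in the Golgi, where MGAT enzymes start one antenna after another, B4GALT and B3GNT enzymes lengthen each antenna with galactose and N-acetylglucosamine, and sialyl- and fucosyltransferases cap the ends. O-glycans on mucin-type proteins are widened in the same compartment by GCNT enzymes. In leukocytes the combination of core 2 branching by GCNT1, sialylation by ST3GAL4 and fucosylation by FUT7 makes sialyl Lewis x, the glycan through which P-selectin glycoprotein ligand is held by selectins on the vessel wall. A separate branch works on lipids, where ST3GAL5 makes the ganglioside GM3 and ST8SIA1 turns GM3 into GD3.

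All values are processed signals in arbitrary intensity units, and each difference is the log2 signal on the MEF2C-ASR array minus that on the control array, after each array's 75th percentile was subtracted. A signal well above background on both arrays counts as measured, and a difference of at least 2-fold (1 on the log2 scale) was used as a rule of size. Detection reached lower on one array: the dimmest signal well above background was 38.3 for the control and 19.98 for MEF2C-ASR, and 2200 genes were seen with MEF2C-ASR alone against 188 in the control alone. The spotting error of a difference, from 131 probes printed 10 times, was 0.14 over all levels, 0.25 for mean signals under 300 and 0.07 for higher signals. It leaves out the variation between cultures and RNA pools. Mef2c itself was higher with MEF2C-ASR on its measured probe (signal 795 in the control, 1969 with MEF2C-ASR, 2.54-fold), while its other probe was dim, not well above background, on both arrays. All 10 haematopoietic and myeloid progenitor markers were measured on both arrays, with differences from 0.10 (Cd34) to 1.103 (Mpo, the granule enzyme myeloperoxidase) and a median of 0.46. Of the marker lists of other cells, 4 of 8 B, T and NK genes, 3 of 5 erythroid and 4 of 7 stromal and endothelial genes were measured. Cdh5, Pdgfra, Ncr1 and Cd8a were not well above background on either array. The markers of other cells that differed most, chosen after their values were seen, went both ways. The stromal gene Lum had a signal of 225 in the control and 18.4 with MEF2C-ASR, where it was not well above background, which makes it at least 11.0-fold lower. The pericyte and fibroblast receptor gene Pdgfrb was 3.50-fold lower (83.8 and 23.4), while the collagen gene Col1a1 differed by 0.89 (45.2 and 81.5) and Col1a2 by -0.06 (212 and 199). Klf1, an erythroid transcription factor gene, differed by -0.96 (108 and 54.4), and the B cell receptor gene Cd79a was 2.21-fold higher (55.3 and 119).

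Most of the enzymes had nearly the same signal on the 2 arrays. Of the 53 genes, 36 were measured on both arrays, 8 were well above background on the MEF2C-ASR array alone, 1 on the control array alone, and 8 on neither. Among the 36, none was at least 2-fold higher, against 1.74% of 16570 genes measured, and 1 (2.78%), St3gal5, was at least 2-fold lower, against 1.91%. These shares lie near those of all genes. Within 1.5-fold lay 32 of the 36 (88.9%), beside 90.4% of all genes. The median difference of the 36 was 0.12 and that of all genes -0.03. With scaling by the spike-in spots (probes for added control RNA, of which 7 were used) these medians were -0.050 and -0.20. A small difference above 0 is therefore not a direction that holds under every scaling. A difference above 0 was found for 21 of the 36 (58.3%), beside 44.8% of all genes. With spike-in scaling it was found for 15. That count cannot be set beside the 44.8%, because spike-in scaling lowers the differences of all genes by the same amount. The share of all genes under it is not given here. Of the 52 measured probes, 1 (1.92%) was at least 2-fold higher and 2 (3.85%) at least 2-fold lower, beside 1.6% and 1.78% of all probes. Because the RNA came from whole cultures, fewer cells of a type and less RNA per cell cannot be told apart.

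**Figure D1:**
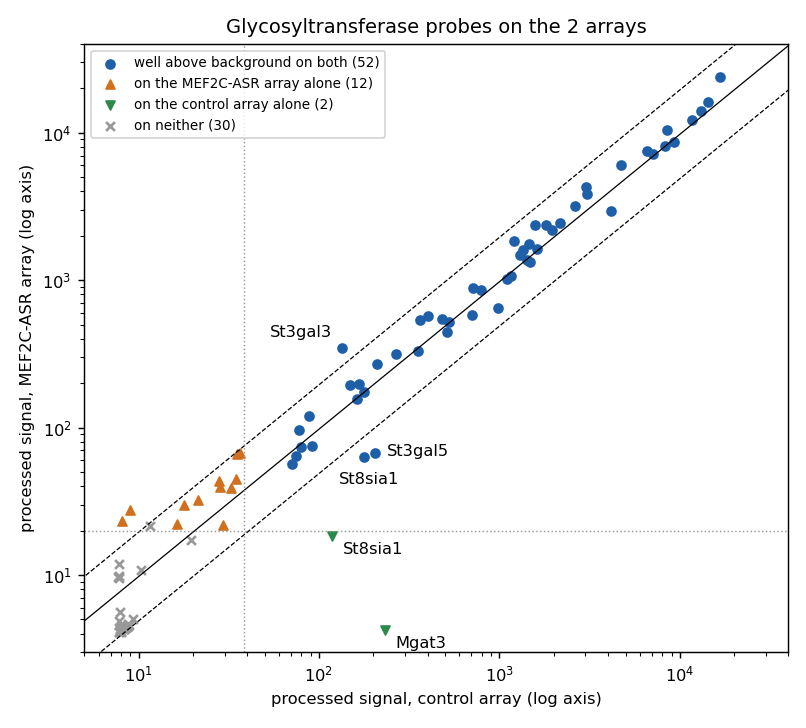
Processed signal of each of the 96 glycosyltransferase probes on the control array (horizontal, log axis) and on the MEF2C-ASR array (vertical, log axis). The solid line marks equal scaled signal, the dashed lines 2-fold apart, and the dotted lines the lowest signal well above background on each array (38.3 and 19.98). Of the 52 probes measured on both arrays, 1 (St3gal3) lies above the upper dashed line and 2 (St3gal5 and St8sia1) below the lower one.

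Among the 36 genes measured on both arrays, the one member past 2-fold belongs to the glycolipid branch. St3gal5, the GM3 synthase, had a signal of 203 in the control and 67.6 with MEF2C-ASR. It was therefore 2.93-fold lower (log2 difference -1.55), and 0.682% of all measured genes had a lower difference. The value rests on 1 probe, at chromosome 6, 72172341 to 72172400, as the array's annotation gives it. The build behind the probe positions is not stated in the labels or headers, so no probe was placed in an exon or UTR. St3gal5 lies below the 25th percentile of level, where 5.17% were at least 2-fold lower, and normexp, a model-based background correction, reduced its difference to -1.03. Of the stromal and endothelial markers, Lum and Pdgfrb were lower in the same comparison, Col1a1 differed by 0.89, Col1a2 by -0.06 and Pecam1 by -0.22. Pdgfra and Cdh5 were not well above background on either array. The part of these markers in this result and in that of Mgat3 was not tested.

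St8sia1, the GD3 synthase that acts on the product of St3gal5, gave different answers at its upstream and its downstream probes. Its most upstream probe (chromosome 6, 142968178 to 142968119) had a signal of 352 in the control and 332 with MEF2C-ASR, a difference of -0.05. A probe 55.1 kb downstream (142913081 to 142913022) had signals of 178 and 63.1, which is 2.75-fold lower (-1.46). The third probe, 53.6 kb downstream of the first (142914595 to 142914536), had a signal of 118 in the control and was not well above background with MEF2C-ASR, which makes it at least 5.76-fold lower. Both downstream probes were thus lower and the upstream probe was not. The mean over the 2 measured probes, -0.76, describes neither of them. Such disagreement is rare over genes of all levels. Of 5476 genes with more than 1 measured probe, 1.08% had a range over probes at least as large as the 1.41 of St8sia1. The median range was 0.15. The share was not computed for dim genes alone, and the spotting error is larger at signals under 300 (0.25). With the brightest probe alone the difference of St8sia1 was -0.05, and with all 3 probes kept -1.39.

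The other glycolipid enzymes were closer to 0 or above it. B4galt5 and B4galt6, which make the lactosylceramide that St3gal5 uses, differed by -0.09 (signals 79.9 and 73.4) and -0.08 (1105 and 1016). B3galt4, which acts later on gangliosides, differed by -0.01 (1417 and 1377). B4galnt1, a ganglioside enzyme outside the gene name rule, differed by -0.07 (mean signals 9222 and 8140). St8sia5, a ganglioside sialyltransferase, was the one member of this branch above 0. Its 2 probes had signals of 1584 and 401 in the control and 2379 and 568 with MEF2C-ASR, differences of 0.62 and 0.54. Both probes of St8sia5 were thus higher by close to 1.5-fold.

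**Figure D2:**
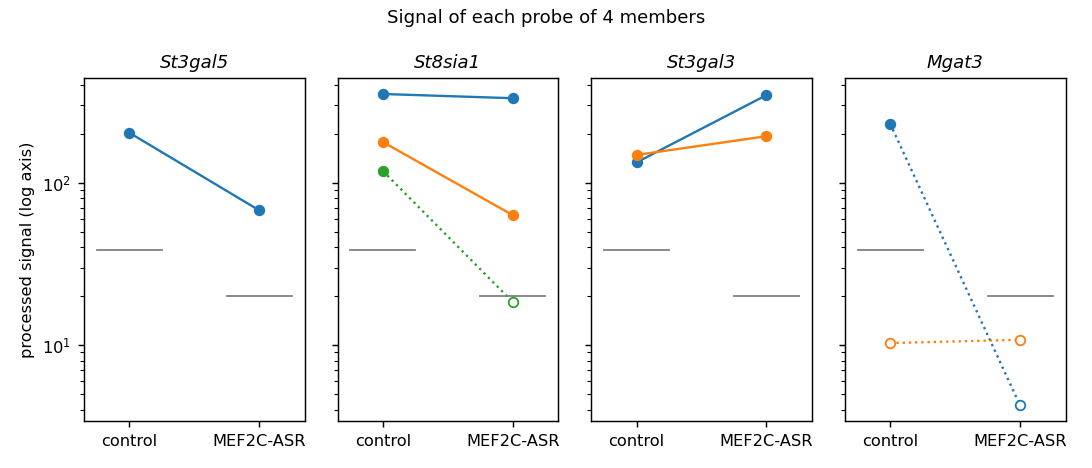
Processed signal (log axis) of each probe of St3gal5, St8sia1, St3gal3 and Mgat3 on the control and the MEF2C-ASR array, with 1 line per probe. Filled points are well above background, open points are not, dotted lines join probes not measured on both arrays, and grey bars mark the lowest signal well above background (38.3 and 19.98). One St8sia1 line is nearly flat (352 to 332) while the other 2 slope down.

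The 250 bases before the RefSeq start of St3gal5 and of St8sia1 are shown (GRCm38.p6, 5′ to 3′ on the gene's strand). Capitals mark GGGCGG, the GC box, on either strand. The first window is chr6:72097358-72097607 on the plus strand, and the second is chr6:142964453-142964702 on the minus strand.
St3gal5: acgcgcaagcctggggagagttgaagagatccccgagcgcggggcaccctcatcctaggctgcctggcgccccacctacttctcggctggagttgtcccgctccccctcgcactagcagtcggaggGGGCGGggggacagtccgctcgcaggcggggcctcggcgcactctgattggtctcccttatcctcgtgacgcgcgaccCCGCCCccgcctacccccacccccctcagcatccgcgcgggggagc
St8sia1: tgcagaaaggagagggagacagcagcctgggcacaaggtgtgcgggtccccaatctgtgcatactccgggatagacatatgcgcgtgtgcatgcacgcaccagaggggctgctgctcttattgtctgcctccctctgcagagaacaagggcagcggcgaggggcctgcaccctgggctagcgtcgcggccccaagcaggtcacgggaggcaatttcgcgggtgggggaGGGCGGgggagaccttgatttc
The St3gal5 window is 71.6% G and C with 2 matches, and the St8sia1 window is 63.6% with 1 match. A GC box occurred in 32.7% of all 32851 RefSeq windows of this length and in 30 of 61 windows (49.2%) of the 41 members that could be matched. Those 30 windows belong to 29 members, among them Mgat1, Mgat2 and Fut8, which lay within 1.5-fold. The part of the GC box in the differences of St3gal5 and St8sia1 was not tested. A loose form of the MEF2 core (CTA, any 4 bases, TAG), which reads the same on both strands, was in neither of the windows shown.

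Among the enzymes that start N-glycan antennae, 5 of 8 were measured and all lay within 1.5-fold, with a median of 0.12 (-0.05 with spike-in scaling). Mgat1, which starts the first antenna of complex N-glycans, had signals of 6590 in the control and 7530 with MEF2C-ASR on its brighter probe (0.23) and 178 and 173 on the other (0.00). Mgat2, which starts the second antenna, had signals of 7119 and 7183 (0.05). Mgat4a and Mgat4b add a further branch, and they differed by 0.21 and 0.12. Mgat1, Mgat2 and Mgat4b lay below 0 with spike-in scaling. Mgat5, which adds the branch that is extended into galectin-binding chains, differed most among these 5. Its measured probes had signals of 3027 and 1802 in the control and 4309 and 2379 with MEF2C-ASR, differences of 0.55 and 0.44. Both probes were higher, and the mean, 1.41-fold, stayed above 0 with spike-in scaling (0.32).

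Mgat3, which adds the bisecting residue that stops further branching, was seen in the control alone. One probe (chromosome 15, 80299894 to 80299953) had a signal of 231 in the control and 4.24 with MEF2C-ASR, where it was not well above background. Against the lowest signal well above background it was at least 11.3-fold lower. Its second probe (80296917 to 80296976) had signals of 10.3 and 10.8 and was not well above background for either culture, so the difference rests on a single spot per array. Of 188 genes seen on the control array alone, 97.3% were past 2-fold as a bound and 7 had a larger bound than Mgat3. With normexp the bound was -2.004 on the log2 scale in place of -3.49. Mgat4c was not well above background in either culture. Mgat5b, a relative of Mgat5 known from brain, was seen on the MEF2C-ASR array alone at a signal of 29.8, under the lowest level that could be measured on the control array, so no fold is given.

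The galactosyltransferases that lengthen antennae were within 1.5-fold in all 5 measured cases, with a median of 0.27 (0.11 with spike-in scaling). B4galt1, the main enzyme of this step in many tissues, had signals of 11659, 9313 and 512 in the control on its 3 probes and 12222, 8607 and 443 with MEF2C-ASR. Its probes lay on both sides of 0, with a mean of -0.05. B4galt3 had signals of 2618 and 3208 (0.33) and B4galt4 of 2167 and 2453 (0.22). B3galt1 was the member furthest above 0 here, with all 3 probes between 0.35 and 0.61 and mean signals of 389 and 517. B3galt5 differed by 0.27 at signals of 167 and 197, and B3galt2 was not well above background. B4galt2 was seen with MEF2C-ASR alone at 38.6. Its bound of 1.03-fold is smaller than the spotting error at such signals.

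The 3 enzymes that build the linkers of proteoglycans and dystroglycan all lay below 0. Most genes did too: of all measured genes, 44.8% lay above 0, and the median was -0.03. B4galt7, which adds the first galactose of the proteoglycan linker, had a signal of 976 in the control and 644 with MEF2C-ASR, 1.48-fold lower (-0.56). B3galt6, which adds the next galactose, differed by -0.08 at signals of 1154 and 1067. The gene named B3gnt1 on the array is the current B4gat1, which works on dystroglycan, and it differed by -0.11. Each of the 3 rests on 1 probe.

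Of the enzymes that extend chains with N-acetylglucosamine, B3gnt2 and B3gnt8 make poly-N-acetyllactosamine. B3gnt2 had signals of 13024 and 1962 in the control and 14085 and 2185 with MEF2C-ASR, differences of 0.15 and 0.19. B3gnt8 had signals of 3076 and 3824 (0.35). B3gnt3, which extends core 1 O-glycans, was dim at 74.7 and 64.6 (-0.17). B3gnt7 was seen with MEF2C-ASR alone, with a bound of 1.15-fold that is smaller than the spotting error at such signals. B3gnt4 and B3gnt5 were not well above background.

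The core 2 enzyme Gcnt1, which opens the O-glycan branch that carries sialyl Lewis x, was measured by 3 probes. Their signals were 1353, 266 and 211 in the control and 1609, 317 and 268 with MEF2C-ASR, differences of 0.29, 0.29 and 0.38. All 3 probes were higher by a similar amount, a mean difference of 0.32 (0.15 with spike-in scaling). Gcnt2, the I-branching enzyme, differed by 0.33 on a dim probe (78.0 and 95.7), and Gcnt3 was not well above background.

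The fucosyltransferases split around 0, with a median of -0.01 over 6 of 9 measured genes. Fut7, which adds the last sugar of sialyl Lewis x, had a signal of 8503 in the control and 10368 with MEF2C-ASR, a difference of 0.32 (0.16 with spike-in scaling). Fut4, which acts on the same chains, had signals of 706 and 579, 1.19-fold lower (-0.25, or -0.42 with spike-in scaling). Each rests on 1 probe. Both differences exceed the spotting error of 0.07 at these signals, but that error leaves out the variation between cultures and the choice of scaling. The third enzyme of this kind, Fut9, was not well above background on any of its 5 probes. Fut8, which adds core fucose to N-glycans, had signals of 8243 and 8119 on its brighter probe (0.01) and a mean difference of 0.12. Fut11 differed by 0.01 and Fut2, which makes the H antigen, by -0.25 on a dim probe (91.6 and 75.2). Fut4-ps1, named as a pseudogene of Fut4, differed by -0.03, and signals of such similar sequences may not be separable by hybridisation. Fut10 was seen with MEF2C-ASR alone, at least 1.81-fold higher on a spot with a background-outlier flag. Fut1 was also seen there alone, at 21.8, below what the control array could measure.

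**Figure D3:**
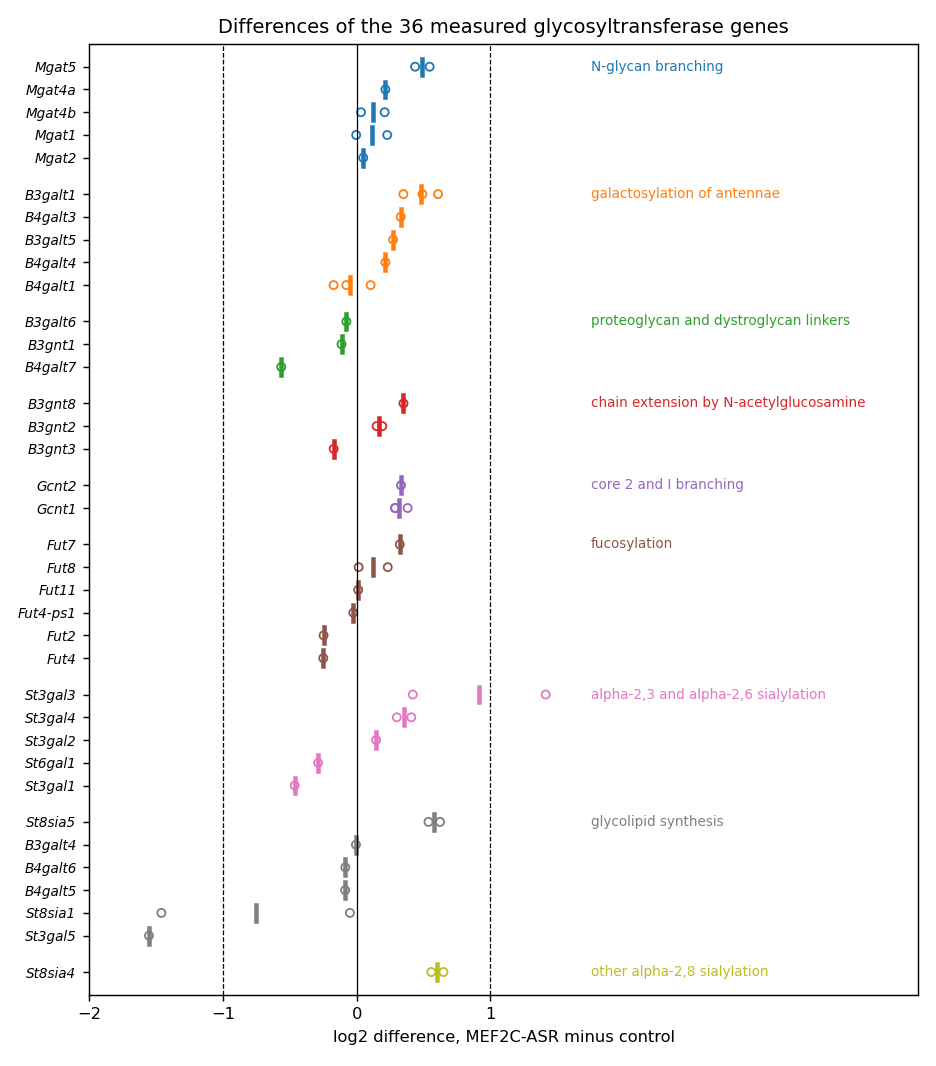
Log2 difference (MEF2C-ASR minus control) of the 36 measured genes, grouped by role. Open circles are single probes, bars the gene means, and dashed lines mark 2-fold. St3gal5 is the one bar beyond a dashed line, at -1.55, and the probes of St8sia1 and St3gal3 are spread the furthest.

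Sialyltransferases that cap protein glycans differed in both directions. St3gal4, the enzyme of selectin ligands in leukocytes, had signals of 4697 and 1463 in the control and 6081 and 1756 with MEF2C-ASR. Both probes were higher, by 0.41 and 0.30, with a mean of 1.28-fold (0.19 with spike-in scaling). St3gal1, which sialylates core 1 O-glycans and so competes with Gcnt1, had signals of 4134 and 2925, 1.38-fold lower (-0.46). Its relative St3gal2 differed by 0.15 (793 and 856).

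St3gal3, which like St3gal4 caps N-acetyllactosamine, again had probes that disagreed. The upstream probe (chromosome 4, 117334933 to 117334874) had signals of 148 and 194 (0.42), and a probe 25.8 kb further downstream (117309142 to 117309083) had signals of 134 and 347 (1.41, or 2.66-fold). Both were higher with MEF2C-ASR, the second alone past 2-fold. The mean of 0.92 stayed just under 2-fold. Of genes with more than 1 measured probe, at all levels, 2.63% had a range over probes at least as large. With the brightest probe alone St3gal3 counted as at least 2-fold higher, and with normexp its mean was 0.67.

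St6gal1, which makes the α-2,6 sialic acid bound by CD22, differed by -0.29 on a dim probe (70.9 and 56.6). Its other probe was seen with MEF2C-ASR alone at 23.3, and with both probes kept the mean changed sign to 0.64. St6gal2 was seen with MEF2C-ASR alone at 66.0, at least 1.77-fold higher. Of the 8 genes seen on that array alone, 4 had a bound above 1 and none reached 2-fold, against 3.77% of 2200 such genes.

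St3gal6, another enzyme of selectin ligands, was at 27.7 with MEF2C-ASR and 9.01 in the control. The first of these is below the 38.3 that the control array could measure, so no fold is given. It is shown here because one of its 2 RefSeq windows holds the loose MEF2 pattern, CTA, any 4 bases, TAG (capitals). That window is chr16:58523427-58523676 on the minus strand of GRCm38.p6.
St3gal6: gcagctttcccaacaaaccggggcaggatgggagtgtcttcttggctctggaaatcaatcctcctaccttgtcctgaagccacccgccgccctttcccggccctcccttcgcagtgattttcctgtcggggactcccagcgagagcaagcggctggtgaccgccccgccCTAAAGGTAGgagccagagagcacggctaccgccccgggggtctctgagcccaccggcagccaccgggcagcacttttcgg
This loose pattern was found in 2 of 61 member windows (3.28%), those of St3gal6 and St8sia2, and in 3.20% of all windows of this length. The middle 4 bases of the St3gal6 match are AAGG. The pattern sets no limit on these bases, so a match is not shown to be a MEF2 site and describes the letters alone.

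The polysialyltransferase St8sia4, which puts chains of sialic acid on a few carrier proteins, was among the 4 members outside 1.5-fold. Its probes had signals of 16711 and 1208 in the control and 23995 and 1848 with MEF2C-ASR, differences of 0.56 and 0.65. Both probes were higher, with a mean of 1.52-fold (0.44 with spike-in scaling). Its partner in polysialylation, St8sia2, was seen with MEF2C-ASR alone at 32.1, and St8sia3 and St8sia6 were not well above background.

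The genes around these enzymes were compared in the same way. Of 104 genes in 8 lists, 87 were measured, 1 was at least 2-fold higher and 1 at least 2-fold lower, beside 1.74% and 1.91% of all genes, and the median was 0.00. In the list of O-glycan initiation and other transferases (21 of 26 measured, median -0.02), Galnt12, which starts mucin-type O-glycans, was 2.92-fold lower (758 and 253). In the sulfation list (7 of 9 measured, median -0.10), the sulfotransferase Chst1 was 2.55-fold higher at low signals (42.3 and 105), and the difference was 0.66 with normexp. The other 2 members named here came close to 2-fold and were chosen after their values were seen. Chst4, which sulfates L-selectin ligands, differed by -0.93 (186 and 95.7), and Tpst1, which sulfates tyrosines, by -0.94 (1544 and 785). Tpst2, the related enzyme, was also chosen so and differed by -0.10 (12669 and 11897).

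Selectins and the proteins that carry their ligands were above 0 in all 8 measured cases of 11, beside 44.8% of all genes. Their median was 0.36 (0.19 with spike-in scaling), and none passed 1.5-fold. Cd24a, Cd34 and Glg1 differed by 0.09, 0.10 and 0.10, less than the fall of the median under spike-in scaling. Not all 8 therefore stay above 0 under that scaling. The 2 members of highest signal were Cd24a, at 0.09, and Spn (CD43), at 0.36 with mean signals of 17028 and 21555. Selplg, the P-selectin ligand itself, was named after its value was seen and differed by 0.58 (11437 and 16946). The 10 progenitor and myeloid markers were also all above 0 (median 0.46), and their part in this result was not tested. Sele, the endothelial selectin, was not well above background in either culture.

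In 4 further lists no member passed 2-fold, and the median difference lay between -0.05 and 0.03. They were N-glycan precursor trimming (9 of 9 measured, -0.02), nucleotide sugar synthesis and transport (20 of 20, -0.05), galectins (6 of 9, -0.03) and enzymes that remove glycan ends (12 of 12, 0.03). The members of highest signal were Mogs (-0.15) and Prkcsh (0.00) for trimming, and Galk1 (-0.03) and Slc35c1 (0.02), the GDP-fucose transporter, for nucleotide sugars. They were Lgals1 (-0.01) and Lgals3 (0.63) for galectins, and Man2b1 (0.17) and Hexa (0.04) for removal. Of the sialic acid receptors called siglecs, 4 of 8 were measured with a median of 0.49 (0.32 with spike-in scaling), led in signal by Cd33 (0.68) and Mag (0.29).

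**Figure D4:**
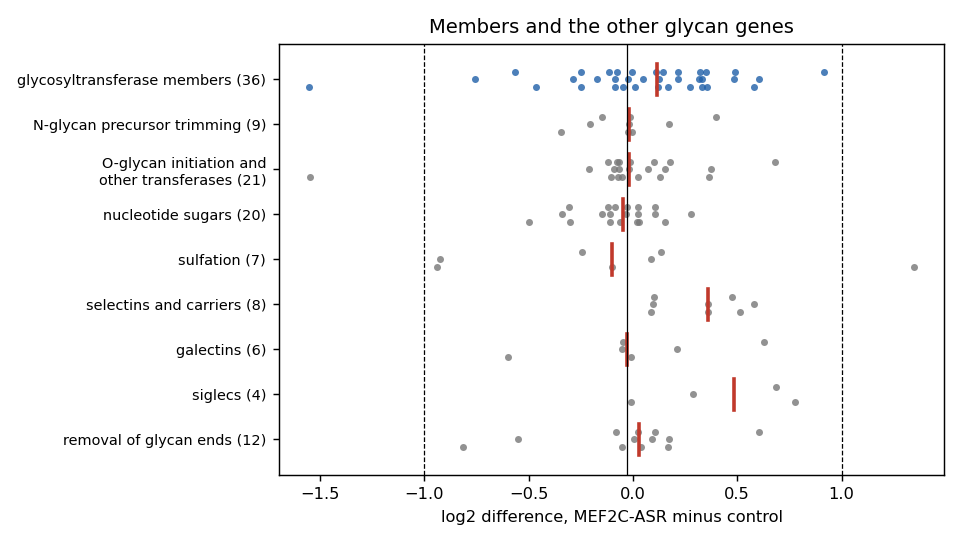
Log2 difference (MEF2C-ASR minus control) of each measured gene among the glycosyltransferases and in 8 lists of other glycan genes, with the number measured in brackets. Red bars are medians, the solid line is the median of all genes (-0.03) and dashed lines mark 2-fold. Outside the glycosyltransferases, Galnt12 and Chst1 alone lie beyond the dashed lines.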

How the data were processed

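The data are 1-colour Agilent arrays, 1 per culture. The deposited values are spot intensity values made with Feature Extraction 9.5.1.1, per the file headers, which list spatial and multiplicative detrending and surrogate values for dim signals as switched on. The deposited value table equalled the processed signals (largest relative difference 0). Here log2 signals were scaled by subtracting the 75th percentile of 43379 non-control spots (signals of 1272 and 1240). Outlier spots were left out, spots of a probe were averaged, and measured probes of a gene were averaged. A gene was called at 2-fold where its measured probes shared a sign. A probe seen on 1 array was given a bound against the other array's detection floor, its lowest such level (or the probe's own, if higher). Probes were named through RefSeq GRCm38.p6 (22951 by accession, 6659 by symbol, 3109 by older symbol, 8455 kept). Members and lists were chosen with earlier results of these data known. Every member is named; in each other list, up to 4 members past 2-fold, or the 2 of highest mean signal. Steps were tested on simulated data. R 4.3.3 with limma 3.58.1 (normexp) and Python 3.11.15 were used. The number of arrays limits precision, and spotting error is the sole error estimate.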

Additional observations from a re-analysis of the deposited data

How the results depend on the processing

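Each result was recomputed under 9 alternatives. Scaling by the spike-in spots moved the median of all genes to -0.20, of members to -0.050 and of other glycan genes to -0.17, and 3 of the latter were then at least 2-fold lower. With normexp 161 genes were higher and 122 lower, and no other glycan gene was higher. Spots with an outlier flag were kept out of that fit, a choice made after seeing that they set the control array's background mean at -905 in place of -11.1. With dim probes kept 790 genes were higher and 980 lower, and 1 and 2 members. With brighter probes alone 102 genes, 0 members and 0 other glycan genes were past 2-fold (lower, lower and higher in turn). With the brightest probe 1 member was higher, St3gal3. St3gal5 stayed at least 2-fold lower under all alternatives but the brighter probes, which left it out. The sign of 7 of 36 members changed with the scaling. The signs of B4galt1, B4galt5, Fut4-ps1 and St6gal1 changed only under alternatives other than scaling. Among the 7, those of Mgat2 and Fut11 changed with normexp as well, and that of B3galt4 with quantile normalization. No paired analysis was possible because each group has 1 array. Dim signals limit the 17 members not measured on both arrays.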

Other observations

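Of 4 further probes, the current gene symbol fits the same families although the name on the array does not. B3gnt9, listed as C76566, was measured at signals of 73.8 and 87.9, a log2 difference of 0.29. Mgat4d, Mgat4e and Mgat4f, relatives of the branching enzyme Mgat4a, were not well above background on either array.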
